A study of Papio anubis with 12 samples.

Results

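Docosahexaenoic acid (DHA) and arachidonic acid (ARA) are the long chain polyunsaturated fatty acids that accumulate in brain membrane phospholipids around birth. Both are made from shorter dietary precursors by alternating desaturation and elongation steps, are esterified into membrane phospholipids and are released again by phospholipases, and ARA is the substrate of the prostaglandin and leukotriene enzymes. DHA also binds nuclear receptors and transcriptional regulators of lipid genes, so the amount supplied in infant formula may be read against both lipid enzymes and the wider cortical transcriptome.

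The comparison described here is between 2 formulas that held the same ARA and differed in DHA. Group L (lcpufa L) received 0.33% DHA with 0.67% ARA, and group L3 (lcpufa L3) received 1.00% DHA with 0.67% ARA. It covered 8 of the 12 arrays in the series, 4 for each formula, selected by their labels alone. The remaining 4 arrays came from group C, fed the formula without DHA or ARA, and entered the shared estimate of spread. All 12 animals were baboon neonates born at about 182 days of gestation and fed formula for 12 weeks, and no breastfed animal was on an array. L animals were 84 to 87 days old and included 3 females and 1 male (replicate 2), while the 4 L3 animals were all female and 83 to 84 days old. Each array carried RNA from the precentral gyrus (primary motor cortex) of 1 animal, so the replicates are separate animals. The arrays were human GeneChips, and baboon transcripts that differ from the human probes may bind them less well, so groups were compared within each probe set, and a probe set's brightness served only to choose 1 probe set per gene and to leave out dim ones.

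The tissue markers matched cortex. Signals of the presynaptic SNAP25 ran from 15482 to 35237 over the 8 arrays and those of myelin basic protein (MBP) from 2109 to 8814. The Y-linked RPS4Y1 had a signal of 4667 in L replicate 2, the only male, and 65.8 to 317 in the 7 females, matching the recorded sexes. In a piece of whole cortex, fewer cells of a type and less RNA per cell cannot be told apart.

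The arrays did not divide cleanly by formula in quality. The mean level of the spike-in control probe sets, on the log2(signal + 16) scale, was 9.14, 8.40, 8.01 and 7.68 in L replicates 1 to 4 and 9.03, 9.06, 9.21 and 7.77 in L3 replicates 1 to 4. L replicate 1 therefore lay with L3 replicates 1 to 3, and L3 replicate 4 lay with the other L arrays. The log2 ratio of the 3′ to the 5′ probe sets of ACTB and GAPDH, a measure of how complete the RNA and its labelling were, averaged 3.05, 1.37, 0.41 and 0.31 in L and 4.72, 2.34, 1.61 and 0.49 in L3. High spike-in levels and high 3′/5′ ratios were thus commoner in L3, without separating the groups, and the 3′/5′ ratio was higher in L3 than in L at each of the 4 replicate numbers, although the labels do not pair animals by number. Counts are given below also without the arrays that stood apart. They are given, too, with the spike-in level as a block, a fit to the 8 L and L3 arrays that set L replicate 1 with L3 replicates 1 to 3. For the named genes at an unadjusted p under 0.05, the value with the block is given where it differed by more than 1.5 times, and the p with the block where it was 0.05 or above. The part of array quality in any single difference was not tested beyond those values.

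**Figure D1:**
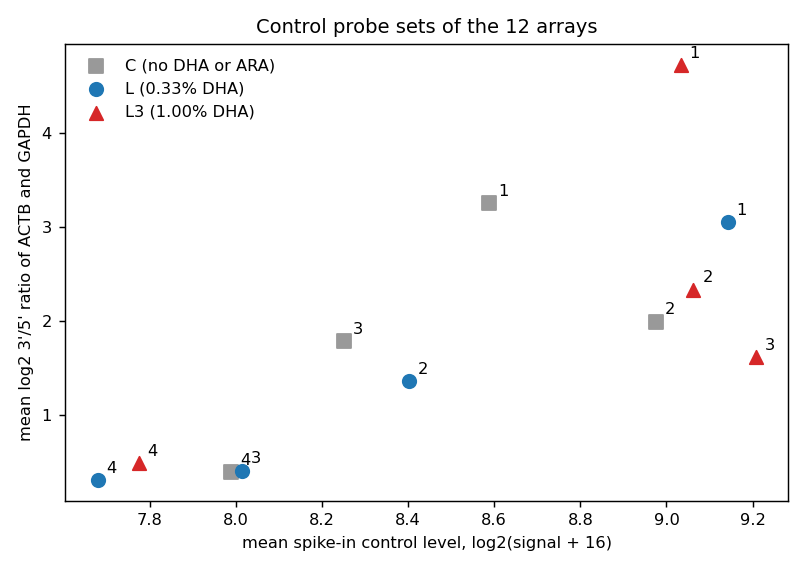
Control probe sets of the 12 arrays, numbered by replicate. The x axis is the mean spike-in level as log2(signal + 16) and the y axis the mean log2 3′/5′ ratio of ACTB and GAPDH. L replicate 1 (9.14) sits beside L3 replicates 1 to 3 (9.03 to 9.21), and L3 replicate 4 (7.77) sits beside L replicate 4 (7.68).

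No probe set differed between L3 and L after correction for multiple testing. Of 54613 probe sets, 0 (0.00%) had an adjusted p under 0.05 by limma with Benjamini-Hochberg adjustment, and the smallest adjusted p was 0.754. At an unadjusted p under 0.05 there were 2949 probe sets (5.40%), 1619 higher in L3 (2.96%) and 1330 lower (2.44%), where 5% of the tests, or 2731, would pass with no difference anywhere. All 4 L3 arrays lay above all 4 L arrays at 833 probe sets (1.53%) and below them at 620 (1.14%), 1453 together. With no difference, a probe set separates the 4 from the 4 arrays, in either direction together, with a probability of 0.0286. The counts were 1007 above and 398 below on the signals as deposited. After centring arrays on their medians they were 618 and 815, so that the commoner direction turned. With 1 probe set per gene, 1001 of 19775 genes (5.06%) had an unadjusted p under 0.05, 510 higher (2.58%) and 491 lower (2.48%), and 50.0% of all genes had a positive difference. The median size of a difference was 0.35 on the log2 scale against a median standard error of 0.51, and 91.2% of probe sets differed by less than 2-fold.

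The balance of directions depended on the scaling and on the probe sets and arrays used. The share higher in L3 among probe sets at an unadjusted p under 0.05 was 54.9% after quantile normalization, 70.1% on the signals as deposited and 38.7% once each array was centred on its median, settings that moved the median difference of all probe sets from 0.01 to 0.08 and -0.13. On the quantile normalized scale it was 45.1% among the brighter probe sets, 49.7% with the replicate number as a block and 48.6% without L replicate 1 and L3 replicate 4. Without L replicate 1 the count at an unadjusted p under 0.05 was 4149, and without L3 replicate 4 it was 5435. With both left out, so that spike-in level and formula ran together, it was 7692, with the spike-in level as a block it was 2851, and with the 3′/5′ ratio as a covariate it was 2982. The adjusted count was 0 in each of these fits.

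**Figure D2:**
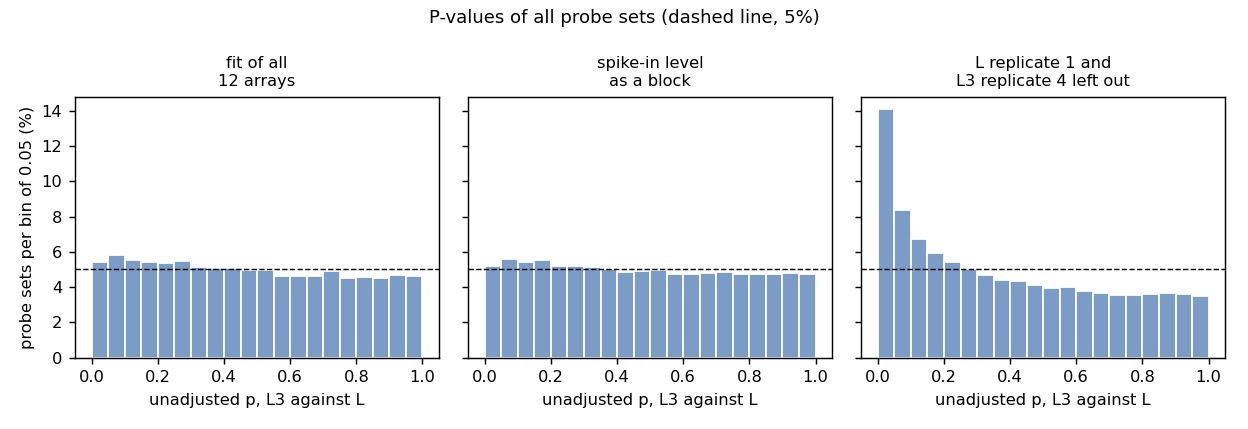
Distribution of the unadjusted limma p of L3 against L over all 54613 probe sets, in bins of 0.05 (x axis) as percent of probe sets (y axis), with a dashed line at 5%. The first bin held 5.40% in the fit of all 12 arrays, 5.22% with the spike-in level as a block and 14.1% without L replicate 1 and L3 replicate 4.

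Single genes are described in that light. At 544 probe sets of 1 named gene brighter than the median, L3 and L arrays did not overlap. L3 was higher at 268 and lower at 276, beside 1.53% higher and 1.14% lower over all probe sets. The 15 with the smallest p in each direction are named here. Since non-overlap was a condition of choice, it is no evidence for these genes. Each of the 30 had an adjusted p of 0.891, and the exact two-sided permutation test of 4 against 4 arrays gave 0.0286, the smallest p that design allows. Sizes ran from 0.84 to 2.93 on the log2 scale, with standard errors of 0.24 to 0.60.

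The widest difference of the 30 was in COASY, the bifunctional enzyme that completes coenzyme A synthesis. Its signal was 635, 399, 214 and 473 in L and 38.9, 20.8, 31.7 and 109 in L3. Every L3 array lay below every L array, with the highest L3 value in replicate 4, and the difference was -2.93 ± 0.60 (SE, log2; n = 4 per group; adjusted p = 0.891, limma). With the spike-in block it was -2.75. In L3 3 of the 4 COASY signals lay in the lower quartile of their array (bounds of 36.6 to 54.9 over the 8 arrays), so the size depends on the pseudocount, and it was -3.40 with a pseudocount of 1. PLCD1 had the smallest unadjusted p of the 30 (1.1e-04, limma). It is a phospholipase C that splits phosphatidylinositol bisphosphate into the second messengers inositol trisphosphate and diacylglycerol. Its signal was 781, 821, 687 and 658 in L and 297, 197, 330.5 and 279 in L3. The L values lay close together and L3 replicate 2 was lowest, for a difference of -1.48 ± 0.29 on the log2 scale. COASY and PLCD1 were each measured by 1 probe set of a single named gene.

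PHKA1, a regulatory subunit of the phosphorylase kinase that starts glycogen breakdown, was also among the 15 lower in L3. It had signals of 191, 347, 477 and 298 in L and 34.4, 29.3, 47.9 and 114 in L3, a log2 difference of -2.35 ± 0.60 (SE). L3 replicate 4 was the highest of its group here too. ACP1, a low molecular weight protein tyrosine phosphatase, differed by -1.61 with signals of 279 to 442 in L and 70.2 to 209.9 in L3. PLK3, a stress-responsive polo-like kinase, differed by -1.81, and HSPB6, a small heat shock protein, by -1.71. The mitochondrial ribosomal protein MRPS12 differed by -2.06, from 257 to 348 in L to 33.8 to 135 in L3.

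ID3, an inhibitor of basic helix-loop-helix factors that restrains neural differentiation, was another of the 15. It had signals of 290.2, 248, 499.6 and 246 in L and 119, 81.5, 75.5 and 79.5 in L3. No L3 array reached the lowest L array, and the difference was -1.74 ± 0.43 (SE, log2), or 3.33-fold lower in L3. RING1, a ubiquitin ligase of Polycomb repressive complexes, differed by -1.68 and DPF2, a histone-reading subunit of the BAF chromatin remodelling complex, by -1.36. The homeodomain factor MEIS3 differed by -1.73. GSE1, which is found with histone deacetylase complexes, had L signals of 499.9, 463, 519.9 and 419 and L3 signals of 85.6, 69.4, 91.3 and 348. L3 replicate 4 stood far above the other L3 arrays at GSE1, and the difference of -1.94 became -1.43 with the spike-in block. The noncoding LINC01547 (-2.26), the sperm microtubule protein SPMIP5 (-1.93) and MYCBPAP (-1.62) completed the 15.

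The genes higher in L3 were led by PCA3, a noncoding RNA known from prostate. Its signal was 26.2, 54.1, 31.1 and 36.7 in L and 392, 232, 382 and 173 in L3. In L 3 of the 4 values lay in the lower quartile of their array, so the log2 difference of 2.39 ± 0.51 (SE) depends on the pseudocount of 16, and it was 2.82 with a pseudocount of 1. Of the 30 genes, 12 had at least 1 L or L3 array in the lower quartile, and COASY, PCA3 and MUCL3 had 3 in a group. KIF6, a kinesin motor protein, had signals of 91.5, 89.8, 142 and 102 in L and 265, 534, 376 and 449.5 in L3 and differed by 1.62 ± 0.36. QSOX1, which introduces disulfide bonds into secreted proteins, had signals of 147, 146, 278 and 115 in L and 628, 411, 656 and 408 in L3. Its difference was 1.53 ± 0.36 on the log2 scale, 2.89-fold, without overlap.

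DICER1, the ribonuclease that cuts microRNA precursors, had the smallest difference of the 30, 0.84 ± 0.24 (SE, log2), from signals of 553, 1019.6, 694 and 917 in L to 1221, 1387, 1122 and 1120.5 in L3. Its groups were separated by less than the spread within L. ARID1B, a DNA-binding BAF subunit, differed by 1.41 at the named probe set. That is opposite in sign to the BAF subunit DPF2, but brighter ARID1B probe sets were lower in L3, as DPF2 was. CISD2, an iron-sulfur protein of the endoplasmic reticulum and outer mitochondrial membrane, had signals of 33.5, 51.9, 98.0 and 32.7 in L and 358, 157, 365 and 372 in L3, a difference of 2.11 with L3 replicate 2 lowest of its group. MALL, a raft-associated membrane proteolipid, differed by 1.97, and DNAJC4, a heat shock protein 40 co-chaperone, by 1.58. The zinc finger genes ZNF547 (1.39) and ZNF146 (1.06) were also higher, as were TMEM116 (2.39), MUCL3 (2.13), YY1AP1 (1.91), FAM91A1 (1.80) and SYNPO2L (1.60). Against C, the study listed ZNF547 as higher in L3 but ZNF146 as lower.

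**Figure D3:**
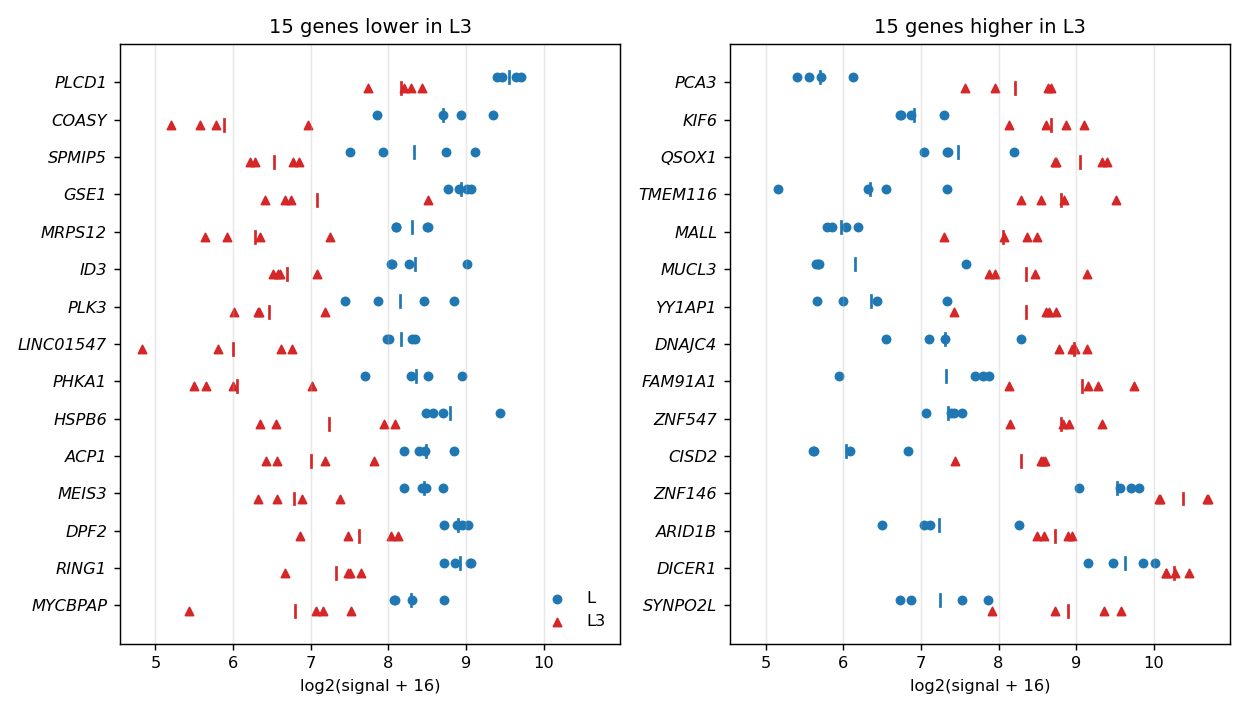
Signals of the 30 named genes as log2(signal + 16), as deposited (x axis), in the 4 L (blue circles) and 4 L3 arrays (red triangles), with a tick at each group mean. The groups do not overlap at any of these genes because non-overlap was a condition for naming them, and COASY shows the widest gap between means.

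Different probe sets of the same gene rarely repeated these differences. Of the 30 genes, 23 had 48 further probe sets, of which 18 had the same sign and 0 had the same sign with an unadjusted p under 0.05. Another QSOX1 probe set had a log2 difference of -1.77 (unadjusted p = 0.0032) and another MRPS12 probe set one of 0.88 (unadjusted p = 0.032), both opposite to the named probe set. RING1 had a brighter second probe set at 0.34, and ACP1 brighter ones at 0.17 and -0.20. Brighter probe sets were also opposite in sign at PCA3 (-0.0019), KIF6 (-0.20), CISD2 (-0.32) and PLK3 (0.03). At DNAJC4 (0.24), GSE1 (-0.33), PHKA1 (-0.59) and HSPB6 (-0.49) a brighter one had the same sign and a smaller size. The only further probe set of ZNF547 (-0.61) and of ZNF146 (-0.60) was dimmer and opposite in sign. ARID1B had 6 further probe sets between -0.58 and 0.10, and those brighter than the named one were all opposite to it (-0.58, -0.41 and -0.28). Different probe sets can detect different transcript ends, and which of them follows the gene was not tested.

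Against the formula without DHA or ARA, some of these genes are given side by side, the comparisons sharing arrays. COASY differed from C by 0.22 ± 0.60 (SE, log2) in L and by -2.71 ± 0.60 in L3, and PLCD1 by 0.38 and -1.09. ID3 differed from C by 1.43 ± 0.43 in L and -0.31 ± 0.43 in L3. PCA3 differed from C by -1.81 and 0.58, and KIF6 by -1.16 and 0.47. COASY and PLCD1 were farthest from C in L3, whereas ID3, PCA3 and KIF6 were farthest from C in L. At 27 of the 30 genes L minus C was opposite in sign to L3 minus L. Choice by L3 minus L on these arrays favours that, so these values are a description only.

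Gene families were followed with 51 lists, each gene by its brightest probe set. Of 1080 genes measured, 52 (4.81%) had an unadjusted p under 0.05, 22 higher and 30 lower, beside 5.06% of all genes, so the listed genes were not richer in small p-values than the array. The members named below had adjusted p-values of 0.891 or higher. The exact permutation test gave 0.0286 to those whose normalized L3 and L values did not overlap, as above, and a larger p to the rest, such as 0.0571 for TTR, 0.0857 for FABP4 and KEAP1, and 0.143 for FADS2. With the spike-in block all 52 kept their direction and 13 kept an unadjusted p under 0.05, 15 being smaller and 1 larger by over 1.5 times. The 8 arrays alone, without the block, left 36 at that threshold. The median difference was -0.03 over all listed genes and 0.00 over all genes. Among members at an unadjusted p under 0.05, every further probe set had the opposite sign at APOC1, PEX5, AMACR, PDHB, GALC, DEGS1 and ATP8B2. The same held for GRIA4, CACNA1H, SEMA3A, MAP2, GNG11, CTSC, CAMK2A, AQP1 and DNAI1. Every further one had the same sign at FABP4, PNPLA2, ALOX15B, PGK1, PRDX3, CNTN2, NEFH, THY1, SOX10 and AIF1. ACER3 had 5, 1 of the same sign. Others named had both signs or none further.

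The measured enzymes of fatty acid desaturation and elongation were mostly lower in L3, none past the unadjusted threshold. Of 19 listed genes 15 were measured, and the desaturase FADS1 was not among the 15. Of 15 desaturases, elongases and partner enzymes, 11 were lower and 4 higher, with 0 at an unadjusted p under 0.05 and a median of -0.34 on the log2 scale. FADS2, the desaturase at the entry of the DHA and ARA pathways, had signals of 267, 119.5, 106 and 272 in L and 82.2, 24.4, 41.2 and 237 in L3. The groups overlapped, since L3 replicate 4 lay with L, and the difference was -1.23 ± 0.63 (SE; unadjusted p = 0.068; adjusted p = 0.891, limma). ELOVL4, which builds very long chain fatty acids, had signals of 235, 560.0, 287 and 471 in L and 411, 52.8, 30.9 and 317 in L3 and a difference of -1.35 ± 0.64 (unadjusted p = 0.050). L3 replicates 1 and 4 lay within L, and L3 replicates 2 and 3 lay below it. With the spike-in block FADS2 differed by -0.76 (unadjusted p = 0.30) and ELOVL4 by -0.66 (unadjusted p = 0.37). ELOVL2 and ELOVL5, the elongases of polyunsaturated chains, differed by -0.54 ± 0.89 and -0.17 ± 0.37, and the stearoyl-CoA desaturases SCD and SCD5 by -0.48 ± 0.29 and -0.01 ± 0.18. The study reported ELOVL5 as the only differential enzyme of this synthesis, slightly lower than C in L and higher in L3. Per array, the median deviation of the 15 genes from their own means was -0.06, 0.34, 0.32 and 0.09 in L and 0.16, -0.31, -0.28 and -0.03 in L3, so that the arrays overlapped. Relative to all genes, the list median stayed below 0 under all 28 alternatives, from -0.51 to -0.11.

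Genes that take up, bind and activate fatty acids showed no common direction. Of 20, 8 were higher and 1 was at an unadjusted p under 0.05. That gene was FABP4, a fatty acid binding protein of adipocytes and vessels, with signals of 122, 136, 65.9 and 162 in L and 39.5, 27.6, 24.5 and 111 in L3. L3 replicates 1 to 3 lay below every L array and replicate 4 within L, and the difference was -1.26 ± 0.54 (unadjusted p = 0.033), or -0.77 with the spike-in block (unadjusted p = 0.24). FABP7, the DHA-binding protein of radial glia and astrocytes, differed by 0.31 ± 0.26, FABP5 by 0.15 ± 0.35, and MFSD2A, the DHA transporter of the blood-brain barrier, by -0.42 ± 0.71. The brain acyl-CoA synthetase ACSL6 differed by 0.21 ± 0.28. All 4 had an unadjusted p above 0.05.

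Among lipid-releasing enzymes, 3 of 17 phospholipases A2 and related hydrolases had an unadjusted p under 0.05. PNPLA2, the adipose triglyceride lipase, was higher in L3, with signals of 480.2, 955, 874 and 1067 in L and 1382, 1915, 1057 and 1552 in L3. Its normalized values did not overlap, L replicate 1 being far the lowest, and the difference was 1.06 ± 0.31 (unadjusted p = 0.0034; 1.24 with the spike-in block). PAFAH1B3, a catalytic subunit of the enzyme that inactivates platelet-activating factor, was lower by -1.85 ± 0.55, with signals of 247, 514, 459 and 721 in L and 109, 49.7, 56.1 and 442 in L3. L3 replicate 4 lay within L, and with the spike-in block the difference was -0.88 (unadjusted p = 0.083). The secreted PLA2G2A differed by -0.89 ± 0.40, and by -1.38 with the block. Of 33 genes of glycerophospholipid synthesis, 12 were higher and 0 were at an unadjusted p under 0.05.

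ARA-metabolizing enzymes were represented by 25 genes, 2 of them lower at an unadjusted p under 0.05. ALOX15B, a lipoxygenase that oxygenates ARA, had signals of 402, 303, 520.0 and 280.0 in L and 86.5, 221, 52.6 and 207 in L3. All 4 L3 arrays lay below all 4 L arrays, for a difference of -1.56 ± 0.48 (unadjusted p = 0.0052; adjusted p = 0.891, limma), and -1.26 with the spike-in block. LTA4H, which makes leukotriene B4, differed by -0.76 ± 0.36, with signals of 414 to 755 in L and 226 to 482 in L3, and had an unadjusted p of 0.15 with the block. The list median was -0.13.

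Sphingolipid enzymes differed in both directions. Of 27, 4 were at an unadjusted p under 0.05, the ceramidases ACER3 (0.64 ± 0.26) and ASAH1 (0.52 ± 0.24) being higher, and DEGS1, which desaturates dihydroceramide (-1.32 ± 0.62), and GALC, which breaks down the myelin lipid galactosylceramide (-0.89 ± 0.38), being lower. ACER3 signals were 476, 669, 516 and 504 in L and 1005, 732, 680.0 and 695 in L3, without overlap. Of 4 further ASAH1 probe sets 2 had the same sign, and another was opposite at -0.68 (unadjusted p = 0.049). Under the block DEGS1 differed by -0.57 (unadjusted p = 0.37), ACER3 and GALC had an unadjusted p of 0.067 and 0.12, and ASAH1 kept its threshold. The P4-ATPases that flip phospholipids between membrane leaflets had 2 of 15 at an unadjusted p under 0.05, in opposite directions. ATP8B4 was lower by -1.16 ± 0.44, with signals of 235, 127, 143 and 123 in L and 76.2, 116, 78.4 and 29.1 in L3, and ATP8B2 higher by 0.61 ± 0.26 (unadjusted p = 0.19 with the block).

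In lipid transport and sterol control, APOC1, an apolipoprotein that inhibits lipoprotein lipase and receptor uptake, was higher in L3. Its signals were 69.0, 47.4, 248 and 161 in L and 436, 474, 408 and 308 in L3. The groups did not overlap, the difference was 1.65 ± 0.54 (unadjusted p = 0.0078; adjusted p = 0.891, limma), and it was 1.83 with the spike-in block. It was 1 of 16 apolipoproteins and exporters. INSIG2, which retains the sterol sensor in the endoplasmic reticulum, was the 1 of 24 cholesterol genes at an unadjusted p under 0.05 (0.82 ± 0.39), with overlapping signals of 275 to 758 in L and 529 to 1228 in L3, and it differed by 0.37 with the spike-in block (unadjusted p = 0.37). Of 18 lipid-sensing nuclear receptors and regulators, 0 passed, and the sterol regulator SREBF1 differed by 0.85 ± 0.57, and by 0.37 with the block.

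Fatty acid oxidation showed little difference. Of 26 mitochondrial beta-oxidation genes 15 were higher and 0 were at an unadjusted p under 0.05, with a median of 0.05. Of 20 peroxisomal genes, 2 were higher at that threshold: AMACR, which prepares branched fatty acids for oxidation (1.48 ± 0.64), and PEX5, the import receptor of peroxisomal enzymes (0.78 ± 0.30). PEX5 signals were 885, 907, 454 and 422 in L and 1083, 853, 1002 and 1329 in L3. L replicates 1 and 2 lay within L3, and L replicates 3 and 4 lay below it. Under the block AMACR differed by 0.88 (unadjusted p = 0.17) and PEX5 had an unadjusted p of 0.12. The list median was nonetheless -0.19, with 8 of 20 genes higher.

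Glycolysis leaned lower in L3. Of 23 genes of glycolysis, glucose transport and pyruvate dehydrogenase, 18 were lower and 5 higher, with a median of -0.20 and 3 at an unadjusted p under 0.05, all lower. ENO2, the neuronal enolase, had signals of 3169, 11874, 8043 and 8374 in L and 4412, 3972, 2277 and 6710.2 in L3. In these signals L replicate 1 lay within L3 and the other L arrays lay above every L3 array, and the difference was -0.58 ± 0.22 (unadjusted p = 0.019). PDHB, a subunit of the enzyme that feeds pyruvate to the citric acid cycle, differed by -0.58 ± 0.22, and PGK1, phosphoglycerate kinase, by -0.46 ± 0.21. Both had normalized values that did not overlap. With the spike-in block ENO2 differed by -0.33 (unadjusted p = 0.15), PGK1 had an unadjusted p of 0.069, and PDHB alone of the 3 stayed under 0.05. Relative to all genes, the list median remained below 0 under all 28 alternatives, from -0.50 to -0.04, and was -0.04 with the spike-in block. The per-array score was -0.22, 0.30, 0.23 and 0.19 in L and -0.35, -0.09, -0.15 and 0.06 in L3. L replicate 1, the array with the high spike-in level, was the lowest of L, and L3 replicate 4 was the highest of L3.

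**Figure D4:**
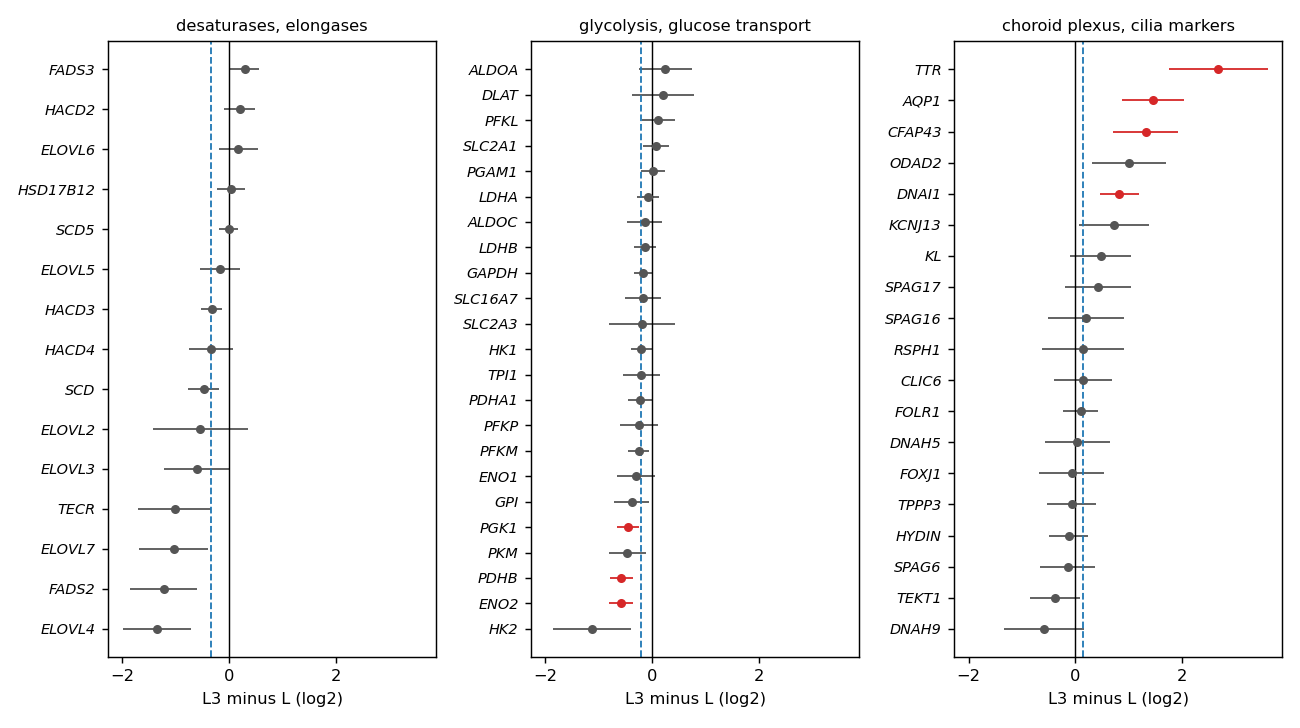
Difference of L3 minus L (x axis, log2, with SE bars) for each gene of the desaturase and elongase, glycolysis and choroid plexus lists, with genes at an unadjusted p under 0.05 in red and the list median as a dashed line. The medians are -0.34, -0.20 and 0.14, and TTR at 2.67 is the highest value shown.

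Mitochondrial genes were balanced. Of 47 genes of the respiratory chain and ATP synthase, 27 were higher and 1 was at an unadjusted p under 0.05, the cytochrome oxidase subunit COX8A at -0.81 ± 0.37. HSPD1, the mitochondrial chaperonin, was higher by 0.51 ± 0.19. UCP2, an uncoupling protein, had a brighter probe set at -1.21 ± 0.59 and a dimmer one at 0.57 ± 0.51, opposite in sign. The dimmer one is the probe set of the study's tables, and it differed by 0.80 with the spike-in block. The study reported UCP2 higher than C in both groups, more so in L3. Under the block COX8A differed by -0.38 (unadjusted p = 0.33), the brighter UCP2 probe set by -0.52, and HSPD1 had an unadjusted p of 0.097. In antioxidant defence, the peroxiredoxin PRDX3 differed by 0.76 ± 0.36, and by 0.25 with the block (unadjusted p = 0.46). KEAP1, which holds the antioxidant regulator NRF2 inactive, had signals of 416, 893, 245 and 620.4 in L and 78.6, 68.8, 111 and 561 in L3. L3 replicates 1 to 3 lay below every L array and replicate 4 among them, and the difference of -1.74 ± 0.56 became -0.99 with the spike-in block (unadjusted p = 0.10). Of 40 cytosolic ribosomal protein genes 20 were higher, 0 passed, and the median was 0.00, against -0.44 with each array centred on its median.

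Synaptic and channel genes yielded isolated members. SLC17A6, the vesicular glutamate transporter of subcortical neurons, was higher in L3, with signals of 268, 297, 299 and 298 in L and 574, 384, 574 and 861 in L3. The L arrays were almost level and all 4 L3 arrays lay above them, with a difference of 0.92 ± 0.30 (unadjusted p = 0.0079; adjusted p = 0.891, limma), 1.21 with the spike-in block. It was 1 of 36 vesicle and SNARE genes, whose median was -0.12. GABRA2, a GABA-A receptor subunit, had signals of 888, 1600.0, 1087 and 1149 in L and 1747, 2531, 1378 and 1576 in L3. Its deposited signals overlapped and its normalized values did not, for a difference of 0.80 ± 0.26 (unadjusted p = 0.0070). It was 1 of 12 inhibitory receptor genes. GRIA4, an AMPA receptor subunit, was lower by -1.65 ± 0.54 (unadjusted p = 0.0076), with signals of 434, 109, 412 and 240.1 in L and 92.9, 21.6, 95.2 and 198 in L3. L replicate 2 lay within L3, and with the spike-in block the unadjusted p was 0.064. CACNA1H, a T-type calcium channel, had signals of 292 to 645 in L and 116 to 348 in L3 (unadjusted p = 0.022, and 0.063 with the block), and 0 of 34 potassium channel genes were at an unadjusted p under 0.05.

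Growth, guidance and signalling genes had few members at that threshold. Of 46 axon guidance and growth genes 3 were at an unadjusted p under 0.05: SEMA3A, a repulsive guidance cue (-1.49 ± 0.64), CNTN2, an axonal adhesion molecule (-1.20 ± 0.52), and MAP2, the dendritic microtubule protein (0.40 ± 0.18). CNTN2 signals were 242, 263, 269.6 and 209 in L and 77.3, 134, 132 and 108 in L3, without overlap. MAP2 turned to -0.02 with each array centred on its median. The neurotrophin receptor NTRK3 was higher by 0.64 ± 0.27 and neuregulin NRG1 lower by -1.15 ± 0.50. Of 8 further NTRK3 probe sets 2 had the same sign, and of 5 further NRG1 probe sets 3. The study reported NRG1 higher than C in both groups, more so in L3. At the brightest probe set, NRG1 differed from C by 0.15 ± 0.50 in L and -0.99 ± 0.50 in L3. GNG11, a G protein gamma subunit, had signals of 422, 549, 317 and 417 in L and 229, 212, 238 and 250.3 in L3, without overlap, and differed by -0.91 ± 0.31 (unadjusted p = 0.010). The cyclic AMP phosphodiesterase PDE4B differed by -0.68 ± 0.29. Within the spike-in blocks NTRK3 differed by 0.29, NRG1 by -0.50 and MAP2 by 0.14, and these along with SEMA3A, CNTN2, GNG11 and PDE4B had an unadjusted p of 0.053 to 0.40. In the protease and inhibitor list, cathepsin C (CTSC) was higher by 1.40 ± 0.60 and the secreted inhibitors SERPINF1 and SERPING1 lower by -1.19 ± 0.53 and -1.08 ± 0.49. CTSC signals were 20.2, 17.7, 13.7 and 113 in L and 174, 150.3, 60.8 and 119 in L3, so 3 of 4 L arrays lay in the lower quartile, the size depends on the pseudocount (1.91 with a pseudocount of 1), and all 3 further CTSC probe sets had the opposite sign, from -0.57 to -0.13. With the block SERPINF1 differed by -0.74, and SERPINF1 and SERPING1 had an unadjusted p of 0.25 and 0.11. Of 41 Notch and Wnt genes, 28 caspase and BCL2 family genes and 22 immediate early genes, 0 were at an unadjusted p under 0.05.

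Cell type markers were compared because the block of tissue could vary between animals. Choroid plexus and ciliated ependyma markers had 4 of 19 genes at an unadjusted p under 0.05, all higher in L3. Over all genes 2.58% were higher and 2.48% lower at that threshold. By sign alone, 13 of the 19 were higher and 6 lower, the lowest being the ciliary DNAH9 at -0.59. TTR, the transthyretin made by choroid plexus, had signals of 66.0, 20.7, 37.2 and 21.1 in L and 88.8, 1282, 1001 and 49.8 in L3. L3 replicates 2 and 3 were far above the other L and L3 arrays while replicates 1 and 4 lay close to L. The difference of 2.67 ± 0.92 (unadjusted p = 0.011; 1.76 with the spike-in block, unadjusted p = 0.084) thus came from 2 animals. In C the TTR signals were 139.5, 524.5, 47.1 and 45.8. AQP1, a water channel of choroid plexus, had signals of 26.6, 21.9, 128 and 110.4 in L and 159, 283, 307 and 133 in L3 and differed by 1.46 ± 0.58, without overlap. The ciliary genes CFAP43 (1.31 ± 0.61) and DNAI1 (0.82 ± 0.36) were the others, with an unadjusted p of 0.11 and 0.13 with the block. In L, 3 of 4 TTR signals and 2 of 4 AQP1 signals lay in the lower quartile of their array. FOXJ1, the regulator of motile cilia, differed by -0.07 ± 0.61, and KCNJ13 and CLIC6, further choroid plexus genes, by 0.72 ± 0.65 and 0.14 ± 0.54. The summed signal of the 19 genes ran from 2692 to 3329.7 in L and from 3108 to 6402 in L3. In C it ran from 2645.5 to 4745, overlapping both. The part of included choroid plexus or ependyma in other differences was not tested.

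Excitatory neuron markers had 5 of 20 genes at an unadjusted p under 0.05, in both directions, beside 5.06% of all genes. By sign alone, 6 of the 20 were higher and 14 lower. The splicing factor RBFOX1 (0.54 ± 0.20) and the kinase CAMK2A (0.44 ± 0.18) were higher, although CAMK2A turned to -0.02 with each array centred on its median. NEUROD6, a transcription factor of cortical projection neurons (-0.63 ± 0.25), the heavy neurofilament NEFH (-0.73 ± 0.29) and the surface glycoprotein THY1 (-0.45 ± 0.21) were lower. THY1 signals were 1359.7, 1997, 2059.6 and 2242 in L and 1184, 1224, 1214 and 1229.7 in L3, the L3 arrays being nearly level below all L arrays. NEUROD6 and THY1 stayed at an unadjusted p under 0.05 with the spike-in block, and RBFOX1, CAMK2A and NEFH had an unadjusted p of 0.057, 0.057 and 0.096. The list median was -0.22, and relative to all genes it ran from -0.48 to 0.02 over the alternatives. Interneuron markers had 0 of 18 and a median of -0.02.

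Among glia, 2 of 20 oligodendrocyte markers were lower at an unadjusted p under 0.05, both lineage transcription factors. SOX10 had signals of 936, 1306, 1139 and 1187 in L and 562, 329, 528 and 1286 in L3. L3 replicate 4 lay with L and the difference was -0.90 ± 0.35. NKX2-2 differed by -1.08 ± 0.50, while MBP differed by -0.40 ± 0.32 and the myelin protein MOG by 0.31 ± 0.42. The microglial AIF1 differed by -1.41 ± 0.63, 1 of 17 microglial and complement genes. Its signals were 454, 325, 365 and 441 in L and 78.1, 33.2, 360.1 and 400.0 in L3, with L3 replicates 1 and 2 lowest. With the spike-in block NKX2-2 differed by -0.64, and SOX10, NKX2-2 and AIF1 had an unadjusted p of 0.11, 0.29 and 0.18. Of 15 astrocyte markers 0 passed and 10 were higher, with the highest median of these marker lists, 0.25, from scores of -0.69, 0.19, 0.17 and 0.18 in L and -0.05, 0.43, 0.25 and 0.28 in L3. L replicate 1 was far below all other arrays in that score. Endothelial markers had 0 of 17, and vessel wall and meningeal matrix genes 0 of 29.

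Blood genes did not share a direction. HBB, adult beta globin, had signals of 771, 1226, 824 and 1003 in L and 1248, 1866, 1320.2 and 1158 in L3 and differed by 0.73 ± 0.24 (unadjusted p = 0.0087, and 0.052 with the spike-in block), with deposited signals that overlapped. The delta globin HBD differed by -0.59 ± 0.40 and the alpha globin chaperone AHSP by -0.95 ± 0.51. The median of 9 erythroid genes was -0.36. XIST, transcribed from the inactive X, had signals of 1942, 54.6, 2079.7 and 576 in L and 3693, 2554, 2625 and 1386 in L3 and was low in L replicate 2, the male.

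**Figure D5:**
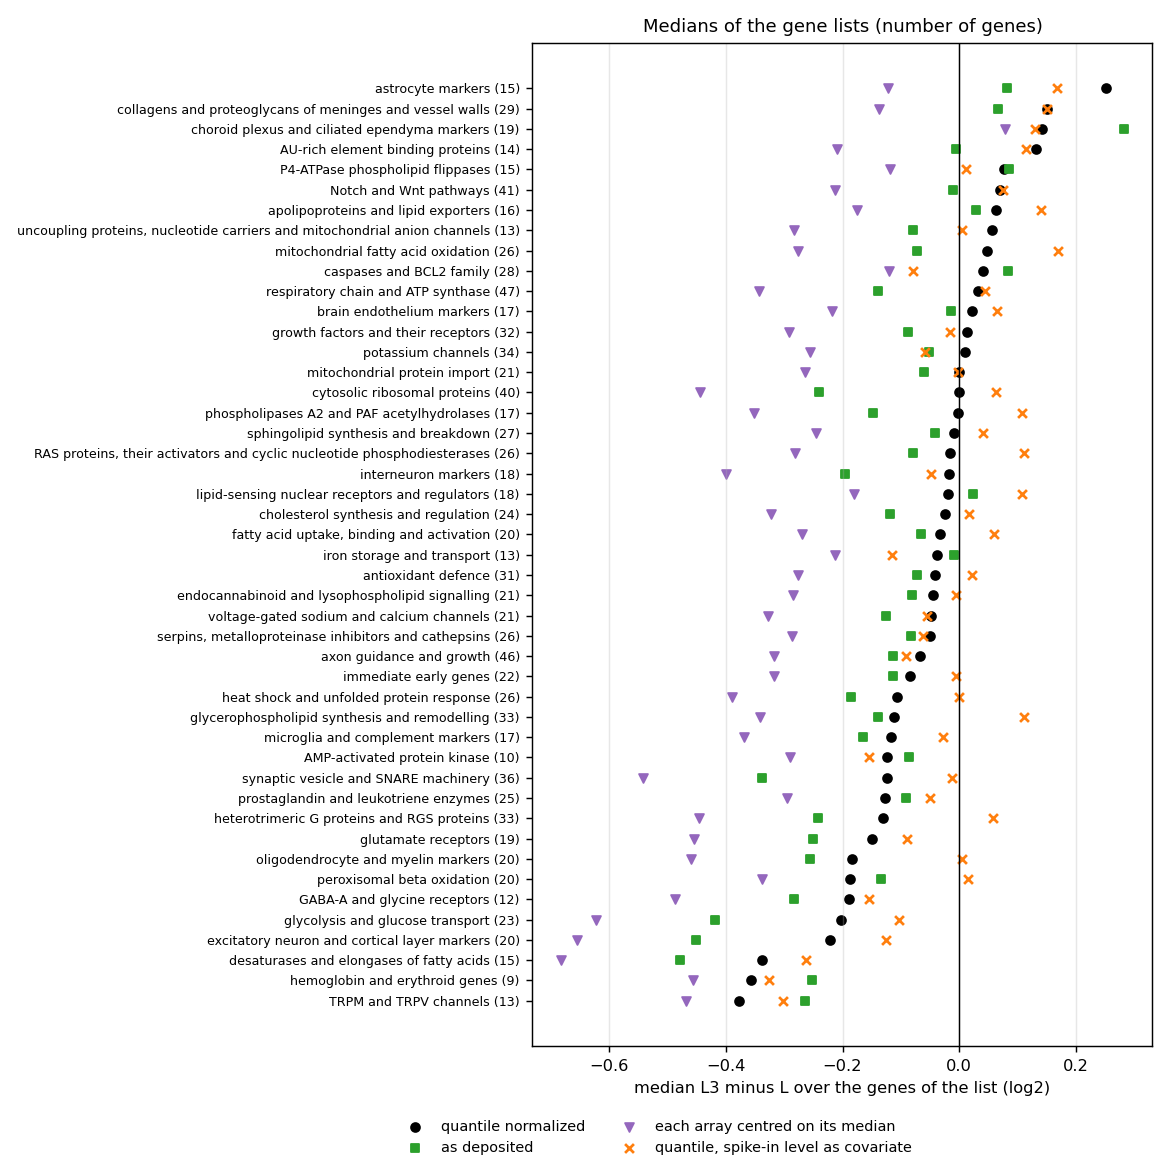
Median of L3 minus L (x axis, log2) over the genes of each list (y axis, with the number of genes; sex-linked genes and lists picked by the study left out), after quantile normalization, on deposited signals, after centring each array on its median and with the spike-in level as a covariate. Centring moves every list shown to the left, and the median of desaturases and elongases lies between -0.68 and -0.26 under the 4 scalings.

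Genes that the study also measured by RT-PCR were read by the probe sets in its tables, where the annotation gave those a single gene. These were chosen on these arrays, so their levels are a description. TIMM8A, a mitochondrial import chaperone, had signals of 199.8, 48.5, 91.4 and 63.2 in L and 202, 297, 223 and 65.0 in L3 and differed by 0.71 ± 0.56 (unadjusted p = 0.22), and by 0.11 with the spike-in block. L replicate 1 and L3 replicate 4 lay among the other group. LUM, the proteoglycan lumican, differed by 0.49 ± 0.46, the zinc finger gene ZNF611 by 0.64 ± 0.35 (0.18 with the block), and the Wnt receptor FZD3 by 0.24 ± 0.31. ADAM17, the shedding protease of tumour necrosis factor, differed by 0.03 ± 0.40 and the flippase ATP8B1 by -0.38 ± 0.30 (-0.14 and -0.15 with the block). In each of these 6 the L3 and L signals overlapped. The study reported ATP8B1 higher than C in both groups, more so in L3. Here ATP8B1 differed from C by 0.40 ± 0.30 in L and by 0.02 ± 0.30 in L3. UCP2, also measured by RT-PCR, differed by 0.57 ± 0.51 at the study's probe set, as given above. From C, TIMM8A differed by 1.46 ± 0.56 in L and 2.17 ± 0.56 in L3, and LUM by 0.44 ± 0.46 and 0.93 ± 0.46, with the C arrays shared. The C signals of TIMM8A were 78.3, 34.1, 5.10 and 9.10, 3 of them in the lower quartile of their array, so its differences from C depend on the pseudocount. Of 26 genes taken from the lipid and energy table of the study, 11 were higher in L3 and 1 was at an unadjusted p under 0.05. That gene was ANXA3, a calcium-dependent phospholipid-binding protein, at -1.45 ± 0.65 (unadjusted p = 0.11 with the spike-in block).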

How the data were processed

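Each of 12 animals gave 1 Affymetrix HG-U133 Plus 2.0 array of precentral gyrus RNA. The deposited values are signal intensities that the authors made with MAS5 in GCOS, 1 per probe set, scaled so that the mean of the central values of each array was 250.0 (2% trimmed from each end). The study's own analysis used RMA, whose values were not used here. Of 54675 probe sets, 62 control rows were left out, and the rest were transformed as log2(signal + 16) and quantile normalized over 12 arrays. L3 was compared with L in limma 3.58.1 (R 4.3.3), fitted to the 3 group means with a variance trend and 9 residual degrees of freedom, and Benjamini-Hochberg adjusted over all probe sets. Single genes described in full also had an exact two-sided permutation test. The script was tested on simulated data.

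Gene symbols came from the platform annotation: 41091 probe sets had 1 symbol, 1801 several and 11721 none, and only those with 1 were named. Named genes were, in each direction, the 15 with the smallest p among probe sets above the median level with no overlap between groups; in each list, up to 6 members at an unadjusted p under 0.05, or the 2 with the smallest p; and the genes measured by RT-PCR, less 3 probe sets without a single symbol. Older symbols, 15 in all, were updated. The members and lists were chosen with earlier results of these data known. Precision is limited by the number of arrays. Alternatives covered scaling, pseudocount, level filter, variance model, covariates for sex, age, spike-in level and 3′/5′ ratio, array weights, a replicate block, the methods' multiclass test and each array left out.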

Additional observations from a re-analysis of the deposited data

Results flagged for a closer look

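In 22 of 292 groups of 4 arrays checked, over 146 named probe sets, 1 array lay so far from the nearest of the other 3 that its gap passed Dixon's critical value, and chance alone gives about 1 in 20. All values are quantile normalized log2(signal + 16), and each is followed by the range of the other 3 arrays of its group.

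L replicate 1 stood apart at MUCL3 (7.32, the others 5.73 to 5.87, higher), PNPLA2 (8.88, the others 9.73 to 9.90, lower), SCN2B (10.73, the others 11.54 to 11.65, lower), MAML1 (9.74, the others 9.01 to 9.10, higher), AHSP (9.57, the others 7.995 to 8.18, higher) and FZD3 (8.88, the others 8.69 to 8.71, higher). L3 replicate 4 stood apart at YY1AP1 (7.54, the others 8.50 to 8.68, lower), GSE1 (8.55, the others 6.36 to 6.55, higher), KEAP1 (9.14, the others 6.35 to 6.74, higher), HAMP (8.52, the others 9.53 to 9.71, lower), MAP2 (12.61, the others 13.27 to 13.37, lower) and RAX (5.74, the others 5.12 to 5.22, higher). These arrays, whose spike-in level lay with the other formula, held 12 of the 22.

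L replicate 2 stood apart at PEMT (7.995, the others 6.98 to 7.08, higher), LPAR2 (7.56, the others 5.63 to 5.94, higher) and PRKAB1 (8.35, the others 7.53 to 7.65, higher). L replicate 4 stood apart at CTSC (7.25, the others 4.94 to 5.24, higher). L3 replicate 1 stood apart at SERPING1 (5.88, the others 7.93 to 8.31, lower). L3 replicate 2 stood apart at CISD2 (7.26, the others 8.44 to 8.63, lower), PLCD1 (7.55, the others 8.17 to 8.28, lower), PEX5 (9.87, the others 10.24 to 10.28, lower) and CAMK2A (12.64, the others 12.23 to 12.29, higher). L3 replicate 3 stood apart at AHSP (6.08, the others 7.96 to 8.02, lower). Without L3 replicate 4 the difference of GSE1 was -2.46 (log2) and that of KEAP1 -2.40, and the cause of these single-array values was not tested.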

How the results depend on the processing

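The count of probe sets at an adjusted p under 0.05 was 0 under all alternatives tried, the methods' multiclass test included. The count at an unadjusted p under 0.05 (2949) was 1358 among the 27306 brighter probe sets, 1457 where the methods' multiclass test and the pairwise comparison were both required, and 2247 to 5435 with 1 array left out, the highest without L3 replicate 4. Without L replicate 1 and L3 replicate 4 together, a choice made after seeing the data, it was 7692. The other alternatives kept it within 1.5 times. The share higher in L3 was 70.1% on signals as deposited and 38.7% after centring arrays on their medians, and it was also under 50% among the brighter probe sets (45.1%), with the replicate block (49.7%) and without L replicate 1 and L3 replicate 4 (48.6%). Probe sets without overlap (1453) numbered 691 among the brighter ones, where fewer were tested.

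With each array centred on its median, the log2 difference turned to -0.0271 for ACSBG1, -0.0638 for ACAT1, -0.116 for RPS7, -0.0531 for HSPH1, -0.0205 for MAP2, -0.113 for HNRNPD, -0.0174 for CAMK2A and -0.0823 for ADAM17, in a setting that moved all genes by -0.18. ADAM17 was also -0.0602 with sex as a covariate, -0.0286 in females only, -0.0991 with the spike-in level as a covariate and -0.135 with it as a block, and ran from -0.30 to 0.24 with 1 array left out. The 30 genes named for a small p without overlap kept their direction under all alternatives. With each array centred, 28 of 30 kept an unadjusted p under 0.05, and all 30 did in every other setting. Since they were chosen on these arrays by that p and by non-overlap, this is no evidence for them. Over all named probe sets, 3256 of 3924 values kept their direction and side of the threshold, 474 lost it, 179 gained it and 15 changed sign. Relative to all genes, 7 of 51 list medians kept their sign under all alternatives.

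The replicate numbers are shared by the groups but nothing in the labels pairs the animals. Same-numbered L and L3 arrays correlated between -0.03 and 0.26 in their deviations from the group means, and 4 of 8 arrays correlated best with their own number. With the replicate number as a replicate block, 3826 probe sets had an unadjusted p under 0.05 and 0 passed the adjusted threshold. Leaving out 1 array left 3 in a group, and where several causes could move a value, the cause was not tested.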

Other observations

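Genes grouped by the start of their symbol, a grouping chosen after the values were seen and so given without a test, are described by counts and medians. The noncoding RNA genes named LINC were the most numerous. Of 841, 59.8% were higher, and the median was 0.15 on the log2 scale against 0.00 for all genes. At an unadjusted p under 0.05 there were 40 higher and 12 lower, or 6.18% together. Over all genes 5.06% passed, 2.58% higher and 2.48% lower. The LINC genes were dim, with a log2 level of 6.78 against a median of 7.14 over probe sets. Their median moved with the scaling. It was 0.27 without normalization (0.03 for all genes) and 0.07 after median centring (-0.18 for all genes). Provisional loci (LOC) had 58.3% of 506 higher and zinc finger genes (ZNF) 54.3% of 503. With the spike-in level as a covariate the LINC median was 0.01 with 26 higher and 24 lower, and with it as a block -0.05 with 20 and 20. The LOC median was 0.11, against 0.01 with the covariate and 0.00 with the block, and the ZNF median 0.06, against 0.00 and -0.02. Mitochondrial ribosomal protein genes had 41.6% of 77 higher, with a median of -0.09 and an unadjusted p under 0.05 at 3 higher and 3 lower, but the median was -0.02 with the covariate and 0.02 with the block, where 5 were higher and 1 lower. Solute carriers were level, with 9 higher and 8 lower of 388 at that threshold, with a median of 0.00, and 1 of 102 olfactory receptor genes was at an unadjusted p under 0.05.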
